A study of Homo sapiens with 346 samples.

Results

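EGR1 and 9 further genes of the short-lived response to stimulation (IER2, IER3, IER5, DUSP1, ZFP36, BTG2, KLF6, KLF10 and MCL1) were followed through single live and methanol-fixed cells of a pair of human cancer cell lines. The members were chosen by name, as immediate early genes outside the AP-1 family, with earlier results of these data known, so their levels are given as descriptions with no test. All 10 were listed among the 28806 genes listed for HCT-116 and the 29551 for HepG2. HCT-116 cells derive from a colorectal carcinoma and HepG2 cells from a tumor of the liver. Cells of both lines were grown in DMEM with serum, detached with trypsin and divided: live cells were stained with propidium iodide and sorted straight away, whereas fixed cells were kept in 80% methanol at low temperature for 1 week before rehydration and sorting. Smart-seq2, which copies polyadenylated RNA of a single cell into full-length cDNA, was used for all of them. The groups held 91 live and 92 fixed HCT-116 cells and 68 live and 83 fixed HepG2 cells. Since every sample was a single cell, with no culture named in its label, each line and treatment counted as 1 sample. The spread over cells is therefore given without a test or a p-value.

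Immediate early genes are transcribed within minutes of a growth signal or of handling stress, without the need for new protein, and their mRNAs are usually removed quickly. Signals through the ERK kinases act on SRF and its ternary complex partners at CArG boxes in the promoters of such genes, and other signals act on CREB at the CRE (cAMP response element). Some products, such as the transcription factor EGR1, carry the response forward, and others close it: DUSP1 is a phosphatase that switches off MAP kinases, and ZFP36 binds AU-rich mRNAs and recruits the machinery that shortens their poly(A) tails.

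To show what the promoters of the genes share and where they differ, the 160 bases before the start site are printed for 5 members from RefSeq (GRCh38.p14), on the strand of the gene. EGR1 and IER2 are shown because their levels varied together over live cells. DUSP1 is shown because its ratio of mean TPM over all live and fixed HepG2 cells was the largest of the members. BTG2 and KLF6 are shown because each holds a match to the site that EGR proteins are known to bind. The stretches lie at chr5:138465319-138465478 (EGR1, plus strand), chr19:13150251-13150410 (IER2, plus), chr5:172771196-172771355 (DUSP1, minus), chr1:203305359-203305518 (BTG2, plus) and chr10:3785210-3785369 (KLF6, minus). Capitals mark the CArG boxes of EGR1, the GC boxes of IER2, the CRE and the TATA box of DUSP1, and the EGR site of BTG2 and of KLF6.
EGR1: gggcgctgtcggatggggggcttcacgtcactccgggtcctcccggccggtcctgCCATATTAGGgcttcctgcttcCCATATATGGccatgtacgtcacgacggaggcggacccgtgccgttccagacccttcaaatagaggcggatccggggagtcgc
IER2: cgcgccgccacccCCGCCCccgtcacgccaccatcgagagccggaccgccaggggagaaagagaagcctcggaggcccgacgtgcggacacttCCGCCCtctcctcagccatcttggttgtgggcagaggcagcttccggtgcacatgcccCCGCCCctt
DUSP1: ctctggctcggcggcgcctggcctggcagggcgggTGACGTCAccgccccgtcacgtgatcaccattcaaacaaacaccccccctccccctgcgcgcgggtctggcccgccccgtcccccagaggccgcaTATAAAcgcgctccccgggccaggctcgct
BTG2: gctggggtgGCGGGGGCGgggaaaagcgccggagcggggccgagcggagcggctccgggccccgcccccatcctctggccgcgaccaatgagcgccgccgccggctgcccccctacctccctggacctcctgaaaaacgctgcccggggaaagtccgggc
KLF6: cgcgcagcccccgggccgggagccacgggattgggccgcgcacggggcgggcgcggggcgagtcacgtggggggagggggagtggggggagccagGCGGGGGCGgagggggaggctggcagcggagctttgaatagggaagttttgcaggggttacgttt

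Motifs were searched on both strands of the 250 bases before the start site, in 7 members with a promoter in the reference and in 35116 promoters in all. EGR1 held 2 CArG boxes, CCATATTAGG ending 96 bases and CCATATATGG ending 74 bases before the start site, and the other matched members held none. A CArG box was found in 1.16% of all promoters. DUSP1 held the CRE (TGACGTCA, in 1.65% of promoters) and the TATA box (TATAAA, in 10.7%). BTG2 and KLF6 held the EGR site (GCGGGGGCG or GCGTGGGCG, in 5.37% of promoters), which overlaps a GC box in both. The GC box (GGGCGG) was found in 5 of the 7 members and in 42.6% of promoters, GGAA in 6 of the 7 and in 92.7%, and the AP-1 site (TGACTCA or TGAGTCA) in 0 of the 7 and in 4.20%. A match is a description of the letters and not a site shown to be used.

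In the reference transcripts of GENCODE release 44, the median length was 2822 bases against 3244 for 11041 expressed genes, the median number of exons was 2 against 9, and the median GC content was 52.9% against 47.8%. The pentamer ATTTA, the core of AU-rich elements that mark mRNAs for decay, occurred in the 3′ UTR of 9 of the 10 members and of 73.1% of the expressed genes. Its density was highest in IER3 (8.14 per kb), ZFP36 (7.06 per kb) and DUSP1 (6.01 per kb), against a median of 1.75 per kb over the expressed genes. EGR1 had 1 copy (0.818 per kb) and IER2 had 0.

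Some features of the cells bear on all values that follow. Total reads per cell, to the nearest 0.1 M (mega), had a median of 2.5 M in live (range 0.7 to 5.3) and 1.8 M in fixed HCT-116 cells (0.2 to 4.9), and of 2.4 M in live (1.5 to 3.7) and 2 M in fixed HepG2 cells (1 to 2.8). The median number of genes with a TPM above 0 was 12031 and 10359 in live and fixed HCT-116 cells, and 13887 and 12293 in live and fixed HepG2 cells. The mean level of 18S rRNA was 255152 TPM in live against 76548 TPM in fixed HCT-116 cells, and 55075 TPM in live against 22615 TPM in fixed HepG2 cells, so a smaller share of the TPM was left for other genes in live cells. The part of depth and of rRNA in the results was not tested. Fixed cells were sorted later than live ones, and the methods describe separate HepG2 experiments without a mark in the labels, so treatment, time of sorting, library preparation and handling before sorting cannot be told apart. Of 17 hepatocyte marker genes, 8 were listed for the cells labelled HepG2 and 0 exceeded 1 TPM in at least 50% of live or of fixed cells. Their summed mean was 2.56 TPM in live against 4.09 TPM in fixed cells, most of it SERPINA1 (2.27 and 3.95 TPM). HepG2 is therefore used here as the name on the label.

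A live and a fixed HepG2 column held equal values for every gene, and 6 fixed HepG2 columns correlated above 0.95 with another fixed column. The 10 members summed to 23.3 TPM in the equal column, below every other live cell (lowest 88.7 TPM, 67 cells) and every other fixed cell (82 cells). In it DUSP1 was at 0, EGR1 at 0.144 TPM and IER2 at 15.4 TPM. Both columns were kept unless stated.

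Fixed cells of both lines had lower levels of IER2, DUSP1 and EGR1, and fixed HepG2 cells also of KLF6. The ratio of mean TPM, fixed over live, was at least 2-fold lower for 2 of the 10 members in HCT-116 (IER2 and DUSP1), where 10.1% of 12426 genes with a mean of at least 1 TPM in either treatment were. In HepG2 it was at least 2-fold lower for 4 members (DUSP1, IER2, EGR1 and KLF6), against 11.3% of 13228 genes. It was at least 2-fold higher for 0 members in HCT-116 (3.81% of genes) and for 1 in HepG2, BTG2 (5.98% of genes). The median log2 ratio over the members was -0.59 in both lines, and over all genes it was 0.16 in HCT-116 and 0.14 in HepG2. Log2 ratios below 0 were found for 7 members in HCT-116 (39.6% of genes) and 8 in HepG2 (41.2% of genes).

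The median of all genes moved with the scaling. After rescaling each cell by the median ratio over widely detected genes it was -0.04 (HCT-116) and -0.08 (HepG2), and with rRNA left out it was -0.18 and -0.05. Measured from the median gene, 3 members were at least 2-fold lower in HCT-116 (12.7% of genes), EGR1 being added at a log2 ratio of -1.09, and 4 in HepG2 (13.3% of genes), while 0 members were at least 2-fold higher in HCT-116 (2.74% of genes). IER2 was then at -2.04 and -3.18 and DUSP1 at -1.69 and -3.54 in HCT-116 and HepG2, EGR1 at -2.64 in HepG2, and BTG2 at 1.06 in HepG2 (4.41% of genes at least 2-fold higher). In the plot of log2 ratios, DUSP1, IER2, EGR1, ZFP36 and MCL1 stood below 0 in both lines under each setting tried. KLF10 and KLF6 in HCT-116 and IER3 and IER5 in HepG2 lay on both sides of 0.

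**Figure D1:**
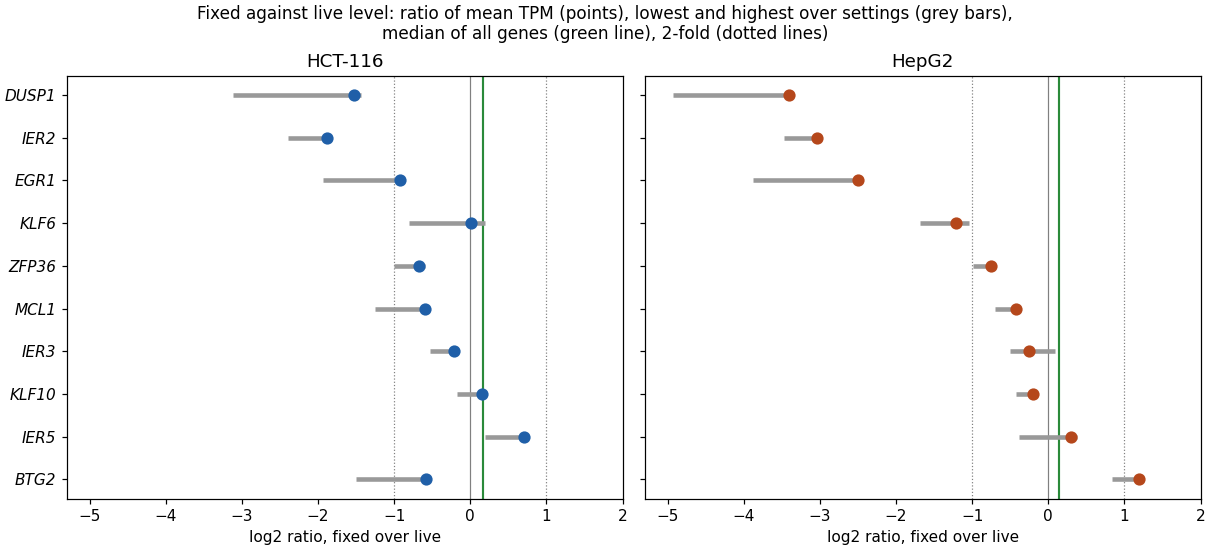
Log2 ratio of mean TPM, fixed over live cells, for the 10 genes in HCT-116 (left) and HepG2 (right), with points for all cells, grey bars for the lowest and highest value over the settings tried apart from leaving out the highest cells, the green line at the median of all genes and dotted lines at 2-fold. DUSP1, IER2 and EGR1 are the 3 lowest in both lines, with points at -1.53, -1.88 and -0.93 for HCT-116 and at -3.41, -3.05 and -2.51 for HepG2, and BTG2 lies at -0.59 in HCT-116 and at 1.20 in HepG2.

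EGR1, a zinc finger transcription factor, ranged from 0 to 386 TPM in live HCT-116 cells with a median of 16.4 TPM, and from 0 to 247 TPM with a median of 4.80 TPM in fixed ones. In HepG2 it ranged from 0 to 168.4 TPM with a median of 23.3 TPM in live cells, and from 0 to 69.7 TPM with a median of 1.65 TPM in fixed cells. The fixed groups were the lower ones and overlapped with the live groups: 20 of 92 fixed HCT-116 cells and 7 of 83 fixed HepG2 cells were above the median of the live cells of their line. Its mean was highest in live HepG2 cells (37.6 ± 37.5 TPM, SD over 68 cells), followed by live HCT-116 (25.6 ± 43.8, 91 cells), fixed HCT-116 (13.5 ± 29.6, 92 cells) and fixed HepG2 cells (6.62 ± 12.7, 83 cells). No neighbors in this order differed by more than the SD over cells. The mean was 1.90-fold lower in fixed than in live HCT-116 cells and 5.68-fold lower in fixed than in live HepG2 cells. In HCT-116 the log2 ratio of -0.93 was -0.99 without the highest cell of each group and passed 2-fold in the other 5 settings (-1.94 to -1.11). In HepG2 the mean was 14.7-fold lower in cells paired on total reads and the level 11.8-fold lower for the mean of log2(TPM + 0.1). A few cells carried much of the total: the 5 highest cells held 32.4% of the summed EGR1 of live and 42.5% of that of fixed HCT-116 cells, and the highest live HCT-116 cell, at 386 TPM, was followed by 102.7 TPM.

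**Figure D2:**
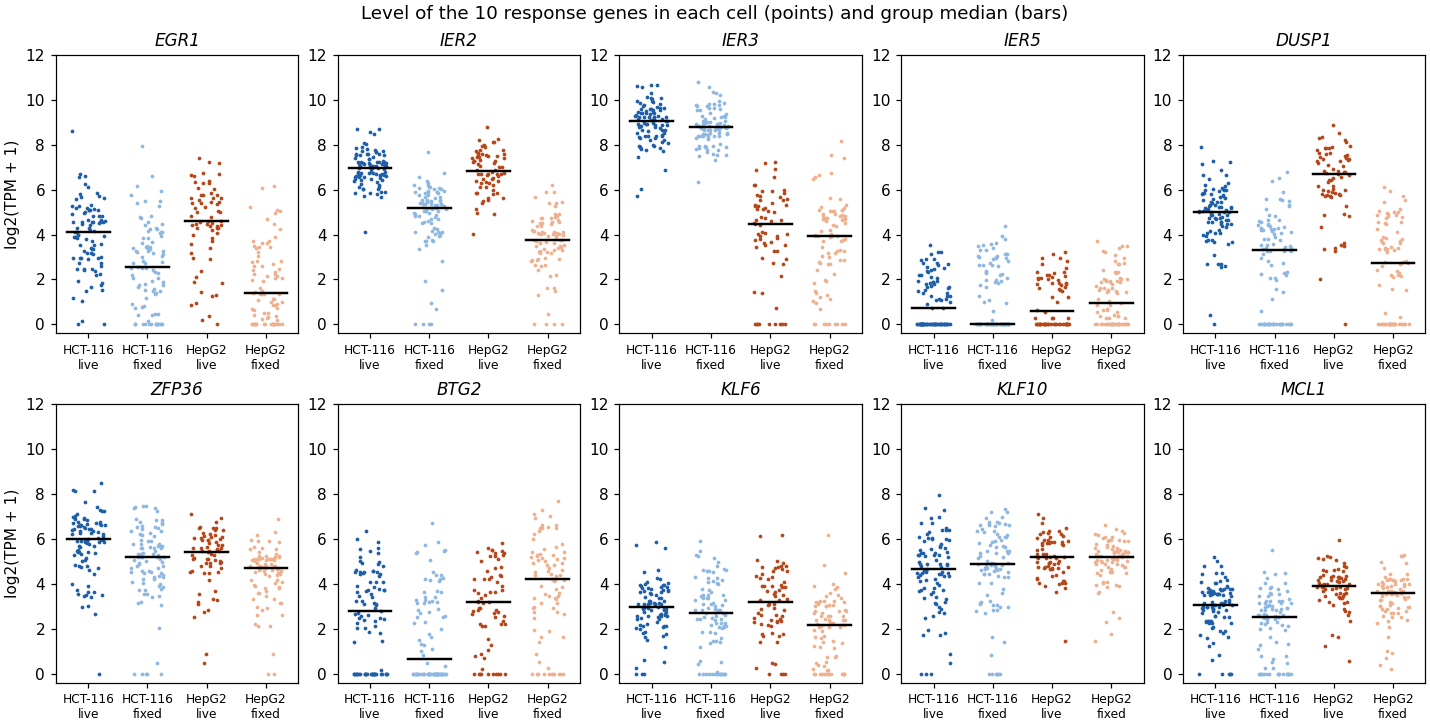
Level of each of the 10 genes in every cell as log2(TPM + 1), in 4 groups per panel (live and fixed HCT-116, live and fixed HepG2), with a point for each cell and a bar at the group median. IER2 and DUSP1 sit lower in the fixed than in the live cells of both lines, IER3 sits high in both HCT-116 groups (medians 525 and 435 TPM) and low in both HepG2 groups (20.9 and 14.1 TPM), and the points of neighboring groups overlap in each panel.

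IER2, a nuclear protein induced together with FOS and EGR1 in many settings, separated the treatments most clearly. It ranged from 16.5 to 419 TPM in live HCT-116 cells (median 124.1) and from 0 to 205 TPM in fixed ones (median 35.5). In HepG2 the range was 15.4 to 446 TPM in live cells (median 112.6) and 0 to 72.6 TPM in fixed cells (median 12.4). Only 1 of 92 fixed HCT-116 cells and 0 of 83 fixed HepG2 cells exceeded the median of the live cells. Of the fixed cells, 22 in HCT-116 and 48 in HepG2 lay below the lowest live cell of their line. Without that live cell, which was apart from the next one at 49.9 TPM, 69 of 92 did in HCT-116, and without the pair of equal columns 73 of 82 did in HepG2. The mean was 3.67-fold lower in fixed HCT-116 and 8.26-fold lower in fixed HepG2 cells. Live cells of both lines had like means (139.3 ± 75.5 TPM in HCT-116 and 133.2 ± 80.4 TPM in HepG2, SD over cells), and the step from these to fixed HCT-116 cells (37.9 ± 28.7 TPM) was larger than the SD. Fixed HepG2 cells followed at 16.1 ± 13.8 TPM, a difference within the SD.

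IER3, a regulator of apoptosis and of ERK signaling, followed the line rather than the treatment. Live HCT-116 cells ranged from 52.2 to 1637 TPM (median 525) and fixed ones from 79.5 to 1757 TPM (median 435). Live HepG2 cells ranged from 0 to 148.9 TPM (median 20.9) and fixed ones from 0 to 284 TPM (median 14.1). The means of both HCT-116 groups (589 ± 335 TPM live and 510 ± 299 TPM fixed) exceeded those of both HepG2 groups (30.6 ± 33.7 and 25.8 ± 43.3 TPM) by more than the SD over cells, and live and fixed cells of a line overlapped widely. The log2 ratio, fixed over live, was -0.21 (HCT-116) and -0.25 (HepG2), and 0.09 in HepG2 cells paired on total reads.

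IER5, which is known to act with the heat shock factor HSF1, was the lowest of the 10 in all groups. Its median was 0.67 TPM in live against 0 TPM in fixed HCT-116 cells and 0.51 and 0.93 TPM in live and fixed HepG2 cells, and its highest value in any cell was 20.1 TPM, in a fixed HCT-116 cell. The 4 groups all began at 0 and overlapped, and their means of 1.73 to 2.91 TPM lay within the SDs. The log2 ratios of 0.70 in HCT-116 and 0.30 in HepG2 thus rest on few reads: the median over cells of its estimated reads was 2 in live against 0 in fixed HCT-116 cells and 2 and 4 in live and fixed HepG2 cells. In HepG2 its direction was not kept in 2 of 8 settings.

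DUSP1, the phosphatase that turns off ERK, JNK and p38, was the member with the largest ratio over all HepG2 cells. In HepG2 cells paired on total reads EGR1 went further (-3.88 against -3.45 for DUSP1, log2). Live HepG2 cells ranged from 0 to 470.1 TPM (median 101.2) and fixed ones from 0 to 68.5 TPM (median 5.59). Live HCT-116 cells ranged from 0 to 235 TPM (median 31.3) and fixed ones from 0 to 108.6 TPM (median 8.82). The fixed group was low in both lines, and 0 of 83 fixed HepG2 and 11 of 92 fixed HCT-116 cells were above the median of the live cells. The live HepG2 cell at 0 was the equal column; without the pair, the lowest live HepG2 cell had 3.03 TPM and 30 of 82 fixed cells lay below it. The mean was 10.6-fold lower in fixed HepG2 cells (122.4 ± 97.7 against 11.5 ± 14.8 TPM) and 2.89-fold lower in fixed HCT-116 cells (41.1 ± 36.6 against 14.2 ± 19.8 TPM). On the scale of mean log2(TPM + 0.1), which weights cells at 0 more, it was 30.5-fold lower in HepG2 and 8.71-fold lower in HCT-116, and for log2(TPM + 1) it was 14.3-fold and 4.53-fold lower. Along the order of the 4 means no step was larger than the SD, although the first and the last of them differ by more than it.

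ZFP36 (tristetraprolin) was detected in nearly all cells. Its median was 62.4 TPM in live against 35.7 TPM in fixed cells of HCT-116, and it was 41.99 TPM and 25.01 TPM in those of HepG2. Fixed cells were lower on the whole with wide overlap, since 23 of 92 and 12 of 83 of them exceeded the live median in HCT-116 and HepG2 (11 of 82 in HepG2 without the pair of equal columns). The log2 ratios of -0.67 and -0.76 lay within 2-fold. For the mean of log2(TPM + 0.1) the log2 ratio was -1.01 in HCT-116, just past 2-fold, and -0.81 in HepG2.

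BTG2, an antiproliferative protein that promotes deadenylation of mRNA, went in opposite directions in the lines. In HCT-116 it ranged from 0 to 82.1 TPM in live cells (median 5.95) and from 0 to 105.6 TPM in fixed cells (median 0.60). In HepG2 it ranged from 0 to 55.5 TPM in live cells (median 8.04) and from 0 to 208 TPM in fixed cells (median 17.8). The fixed HepG2 group was thus the highest of the 4 (31.9 ± 40.4 TPM) and the fixed HCT-116 group the lowest (8.08 ± 16.2 TPM), with the live groups between them (13.9 ± 15.1 and 12.1 ± 15.7 TPM) and no step beyond the SD. The mean was 2.29-fold higher in fixed than in live HepG2 cells, and the log2 ratio in HCT-116 was -0.59. In HepG2 the higher level held in all 8 settings but passed 2-fold in 4 of them, being at a log2 ratio of 0.84 for the mean of log2(TPM + 1), 0.96 for log2(TPM + 0.1) and after rescaling, and 0.98 in paired cells. In HCT-116 the log2 ratio was -1.39 in paired cells and -1.50 for the mean of log2(TPM + 0.1).

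KLF6 and KLF10, zinc finger factors of the Krüppel-like family, differed from each other. KLF6 had medians of 6.91 TPM in live against 5.50 TPM in fixed HCT-116 cells, with ranges of 0 to 57.7 and 0 to 59.97 TPM. In HepG2 its median was 8.13 TPM in live cells (0 to 72.4) and 3.54 TPM in fixed cells (0 to 71.6). The groups overlapped over their whole range in both lines, and 15 of 83 fixed HepG2 cells exceeded the live median (11 of 82 without the pair of equal columns). Its log2 ratio was 0.01 in HCT-116, with values from -0.80 to 0.19 over the settings, and -1.21 in HepG2, with values from -1.68 to -1.04. KLF10, induced early by TGF-beta, was steadier: its median was 24.3 TPM (live) and 28.3 TPM (fixed) in HCT-116 and 35.2 TPM (live) and 35.3 TPM (fixed) in HepG2. Its log2 ratio was 0.15 in HCT-116, where 3 of 6 settings turned it below 0, and -0.20 in HepG2. Most of the reads of each gene were assigned to a single transcript, NM_001300.5 for KLF6 (90.5% to 96.8% of the summed CPM in the 4 groups) and NM_005655.3 for KLF10 (93.4% to 98.7%).

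MCL1, an antiapoptotic protein of the BCL2 family with a rapid turnover, had a median of 7.47 TPM in live against 4.85 TPM in fixed HCT-116 cells and of 14.03 and 10.996 TPM in those of HepG2. Its log2 ratios were -0.59 and -0.43, and no step between its group means exceeded the SD. For the mean of log2(TPM + 0.1) the log2 ratio was -1.26 in HCT-116, past 2-fold, and -0.50 in HepG2. The gene is transcribed into 3 listed mRNAs. NM_021960.4 encodes the long, antiapoptotic isoform 1, NM_001197320.1 the shorter isoform 3, and NM_182763.2 isoform 2, which is known as a promoter of cell death. In HCT-116, NM_021960.4 ranged from 0 to 87.6 CPM in live cells (median 16.8) and from 0 to 49.2 CPM in fixed cells (median 0). Its mean went from 19.5 ± 17.8 to 4.31 ± 9.52 CPM. NM_001197320.1 ranged from 0 to 34.8 CPM in live cells (median 1.12) and from 0 to 63.2 CPM in fixed cells (median 8.64), and its mean went from 5.17 ± 7.66 to 12.2 ± 14.1 CPM. The former was thus lower and the latter higher in fixed than in live HCT-116 cells, with log2 ratios of -2.18 and 1.24, and of -2.11 and 1.15 in cells paired on total reads. NM_021960.4 held more than 50% of the MCL1 reads in 62 of 86 live HCT-116 cells with the gene and in 14 of 75 fixed ones.

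In HepG2, NM_021960.4 was lower in fixed cells as well (17.3 ± 22.3 CPM live, 7.33 ± 11.8 CPM fixed, log2 ratio -1.24), and NM_001197320.1 was at 31.9 ± 27.8 CPM live and 27.8 ± 21.1 CPM fixed (log2 ratio -0.20). The latter held more than 50% of the MCL1 reads in 48 of 68 live and 69 of 83 fixed cells. These transcripts share most of their sequence, and the level of each is an estimate in which shared reads were divided by the quantifier. The median of the estimated reads of the whole gene was 59 in live against 22 in fixed HCT-116 cells. CPM is not divided by length, so a share of reads is not a share of molecules, and the counts of cells above 50% serve only to set live against fixed cells. The plot of MCL1 transcripts shows these levels by cell.

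**Figure D3:**
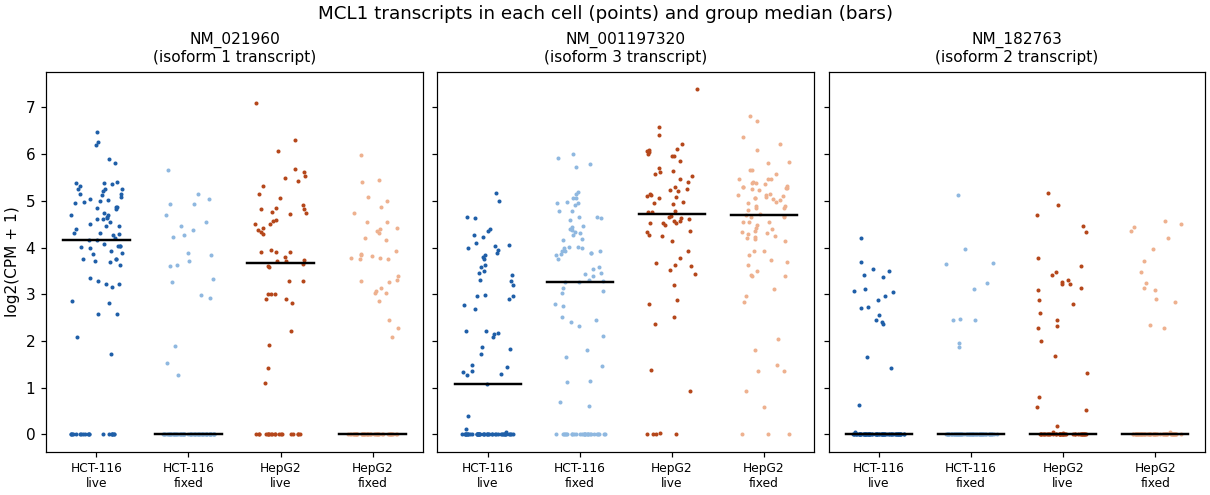
Level of the 3 MCL1 transcripts in every cell as log2(CPM + 1), in 4 groups per panel, with a point for each cell and a bar at the group median. The medians of NM_021960 are 16.8 and 0 CPM in live and fixed HCT-116 cells and those of NM_001197320 are 1.12 and 8.64 CPM, while the medians of NM_001197320 in live and fixed HepG2 cells are 25.2 and 25 CPM.

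The share of cells with a TPM above 0 was lower in fixed cells for 9 of the 10 members in HCT-116, where it was lower for 76.7% of genes, and for 5 of the 10 in HepG2, where it was lower for 64.2% of genes. IER3 was above 0 in all HCT-116 cells of both treatments. EGR1 was above 0 in 97.8% of live HCT-116 cells (89 of 91, Clopper-Pearson 95% limits 92.3 to 99.7) and 77 of 92 fixed ones (83.7%, 74.5 to 90.6), and in 67 of 68 live (98.5%, 92.1 to 99.96) and 65 of 83 fixed HepG2 cells (78.3%, 67.9 to 86.6). DUSP1 went from 98.9% (94.03 to 99.97) to 71.7% (61.4 to 80.6) in HCT-116 and from 98.5% (92.1 to 99.96) to 68.7% (57.6 to 78.4) in HepG2. The intervals cover counting error within each group only and are no test of fixed against live cells, and a TPM of 0 says that no read was assigned, not that the mRNA was absent.

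IER2 was at 0 in 4 fixed cells of each line and in no live cell, and KLF10 and MCL1 were above 0 in all HepG2 cells. In HepG2, IER3, IER5 and BTG2 had somewhat higher shares in fixed cells (for IER5 57.4%, 44.8 to 69.3, in live and 67.5%, 56.3 to 77.4, in fixed cells). For a TPM above 1, the shares of IER5 in HepG2 were close, at 48.5% in live and 49.4% in fixed cells. The mean of the shares over the 10 members was 90.5% in live against 80.4% in fixed HCT-116 cells, and 92.1% and 86.5% in live and fixed HepG2 cells. With the reads of each cell thinned to 500000, which left out 3 fixed HCT-116 cells, the mean shares of HCT-116 became 89.02% (live) and 78.3% (fixed), and those of HepG2 89.7% (live) and 81.9% (fixed). The thinned share of IER3 in HepG2 was 84.2% (live) and 83.03% (fixed), whereas those of IER5 and BTG2 stayed higher in fixed cells. All 10 members were above 0 together in 33 of 91 live (36.3%, 26.4 to 47.01) and 12 of 92 fixed HCT-116 cells (13.04%, 6.93 to 21.7), and in 32 of 68 live (47.1%, 34.8 to 59.6) and 26 of 83 fixed HepG2 cells (31.3%, 21.6 to 42.4). This joint count is not given for other sets of genes or at equal depth, so it is not read as a result about the members.

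**Figure D4:**
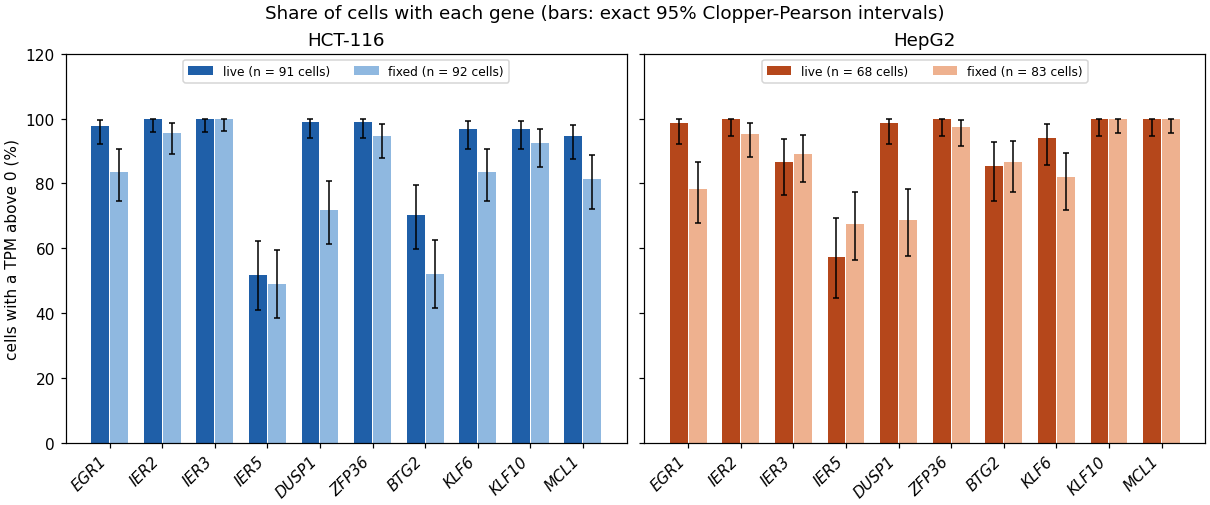
Percent of cells with a TPM above 0 for the 10 genes in HCT-116 (left, 91 live and 92 fixed cells) and HepG2 (right, 68 live and 83 fixed cells), with dark bars for live and light bars for fixed cells and error bars for the 95% Clopper-Pearson interval. EGR1 and DUSP1 have lower shares in fixed cells of both lines (83.7% and 71.7% in HCT-116, 78.3% and 68.7% in HepG2), and IER5 has the lowest share in each group.

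Most members varied more from cell to cell than genes of like abundance. The CV of TPM was higher than the median CV of the 200 genes nearest in mean for 8 members in live against 8 in fixed HCT-116 cells. In HepG2 it was higher for 9 in live against 7 in fixed cells. By construction, as many of the nearest genes lie above that median as below it. EGR1 had a CV of 1.71 against 0.58 for its nearest genes in live HCT-116 cells, 2.20 against 0.85 in fixed HCT-116, 1.00 against 0.51 in live HepG2 and 1.91 against 0.93 in fixed HepG2 cells. The HCT-116 values rested in part on 1 cell of each group: without the highest cell the CV of EGR1 came to 0.99 (live) and 1.52 (fixed), or 1.66 and 1.68 times that of its nearest genes. IER5 (0.88 to 0.96 times its nearest genes) and MCL1 (0.83 to 1.01 times) varied like their nearest genes. IER2 and IER3 had low CVs of 0.54 and 0.57 in live HCT-116 cells, which were still 1.42 and 1.90 times those of the genes nearest to them. The CV was higher in fixed than in live cells for 9 of the 10 members in HCT-116, where it was higher for 85.1% of 10998 genes, and for 9 in HepG2, against 66.9% of 11504 genes. In HepG2 the number was 6 of 10 both after rescaling and in paired cells, and in paired HCT-116 cells it was 7. The share of all genes was not computed under these settings, so the lower numbers are not read as a result about the members.

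Live cells with much EGR1 tended to have much IER2. Spearman's rho of TPM over cells was 0.52 in live HCT-116 (91 cells) and 0.75 in live HepG2 cells (68 cells), and 0.20 and 0.24 in fixed HCT-116 (92 cells) and fixed HepG2 cells (83 cells). Given the number of genes detected and the total reads, it was 0.55 and 0.78 in live and 0.22 and 0.22 in fixed HCT-116 and HepG2 cells. These coefficients are descriptions over cells that share library depth and scaling, and those of HepG2 may span the separate experiments. The difference between live and fixed cells was not tested. EGR1 with IER2 had the highest rho of all member pairs in live cells of both lines. A pair that is highest in some cells tends to be lower in others.

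Over the 45 pairs of members the median rho was 0.09 in live against 0.08 in fixed HCT-116 cells, whereas live HepG2 cells had 0.22 and fixed ones 0.15 (0.20 and 0.14 without the pair of equal columns). In live HepG2 cells the highest values after EGR1 with IER2 were those of IER2 with ZFP36 (0.58), DUSP1 with ZFP36 (0.56), IER2 with DUSP1 (0.53) and ZFP36 with KLF6 (0.52). In live HCT-116 cells IER2 with ZFP36 (0.44), IER2 with KLF10 (0.39) and EGR1 with ZFP36 (0.38) came next. In fixed HepG2 cells the highest pair was ZFP36 with KLF6 (0.45), followed by DUSP1 with KLF6 (0.42). IER3 with IER5 had the lowest value of the 45 in live HCT-116 cells (-0.26) and 0.25 in live HepG2 cells.

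**Figure D5:**
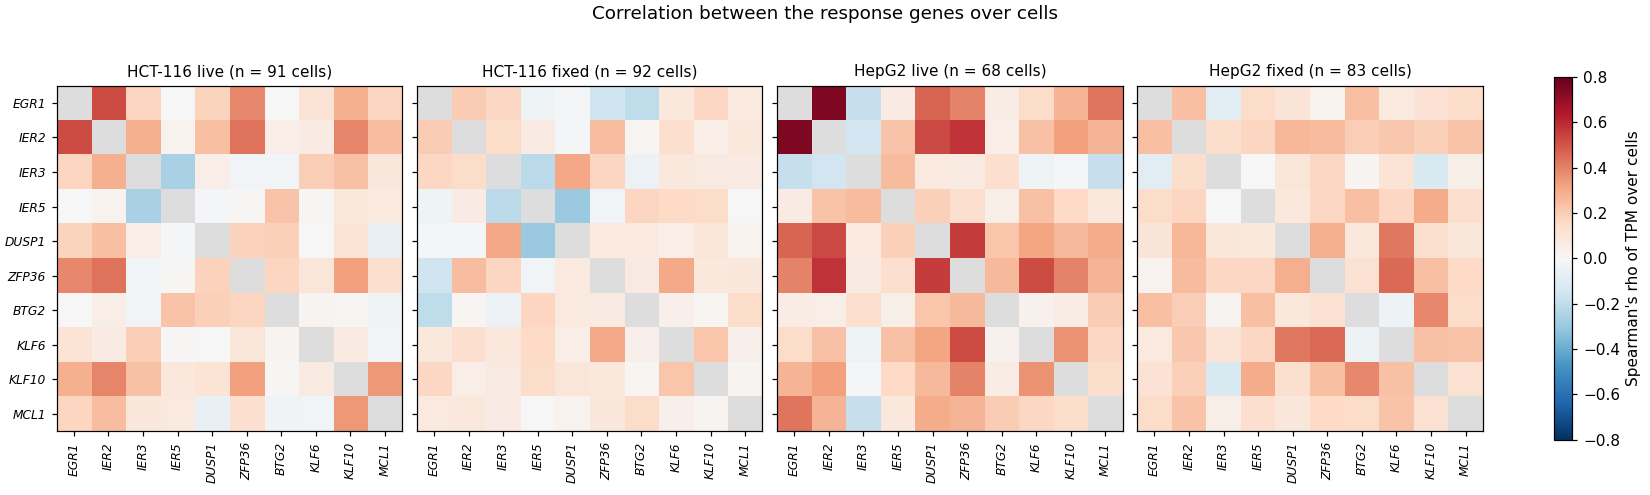
Spearman's rho of TPM over cells for the pairs of the 10 genes in live and fixed HCT-116 (91 and 92 cells) and live and fixed HepG2 cells (68 and 83 cells), in red above and blue below 0, with the diagonal in grey. The darkest square is EGR1 with IER2 in live HepG2 cells (0.75), and a block of EGR1, IER2, DUSP1 and ZFP36 is redder in the live than in the fixed HepG2 panel. The block holds the highest pairs of live HepG2 cells. Pairs picked as the highest tend to be lower in other cells, so nothing is read from this.

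Among the genes with a TPM above 0 in at least 50% of the live cells, those most like EGR1 were ranked by rho. In HepG2, over 68 cells and 13419 genes, the first 5 were FOS (0.80), IER2 (0.75), FOSB (0.69), JUN (0.69) and JUNB (0.64), and the median gene had 0.00. In HCT-116, over 91 cells and 11189 genes, they were IER2 (0.52), JUNB (0.48), KIFC1 (0.44), ZC3H18 (0.44) and NDE1 (0.43), and the median gene had 0.05. IER2 and JUNB were thus in the first 5 of both lines, and FOS came as number 13 in HCT-116 (0.38). The same 5 genes led in each line when the number of genes detected and the total reads were taken into account. In fixed cells, which the ranking did not use, rho with EGR1 was 0.29 for FOS, 0.10 for FOSB, 0.08 for JUN and 0.24 for JUNB in HepG2. In HCT-116 it was 0.09 for JUNB, 0.26 for KIFC1, -0.08 for ZC3H18, 0.23 for NDE1 and 0.31 for FOS. Genes picked as the highest in live cells tend to be lower in any other cells, so nothing is read from this. The other members were spread over the ranking. In HepG2, DUSP1 (0.47), MCL1 (0.43), ZFP36 (0.40) and KLF10 (0.27) were followed by KLF6 (0.15), IER5 (0.07), BTG2 (0.06) and IER3 (-0.18). In HCT-116, ZFP36 (0.38) and KLF10 (0.29) were followed by DUSP1 (0.18), IER3 (0.17), MCL1 (0.17), KLF6 (0.11), BTG2 (0.00) and IER5 (0.00).

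Between the lines, the live cells had like levels of most members. The ratio of mean TPM, HepG2 over HCT-116, was at least 2-fold lower for 1 member in live cells, IER3 (19.2-fold, where 19.5% of 13560 genes were at least 2-fold lower), and at least 2-fold higher for 1, DUSP1 (2.98-fold, 24.5% of genes). In fixed cells it was at least 2-fold lower for 3 members, IER3 (19.8-fold), IER2 (2.35-fold) and EGR1 (2.03-fold), against 19.1% of 13228 genes, and at least 2-fold higher for BTG2 (3.95-fold, 24.1% of genes). MCL1 was 1.77-fold higher in live and 1.99-fold higher in fixed HepG2 cells. With 10 members, these counts are not far from the background. After rescaling, EGR1 lay within 2-fold in fixed cells (-0.95, log2) and MCL1 passed it (1.06). For the mean of log2(TPM + 1), the log2 ratio of IER3 was -4.99 in live and -5.23 in fixed cells, against -4.26 and -4.31 for the mean TPM. The tables of the lines were deposited separately, and the levels are compared as TPM.

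Genes of related lists are given by the same ratio, beside which 10.1% of all genes were at least 2-fold lower and 3.81% higher in HCT-116, and 11.3% lower and 5.98% higher in HepG2. Several of the counts are small and near these shares. Of 8 AP-1 and ATF3 genes, 4 were at least 2-fold lower in fixed HCT-116 cells and 5 in fixed HepG2 cells, 0 were higher, and the median log2 ratio was -0.80 and -2.11. FOS, whose protein pairs with JUN to form AP-1, went from 127.2 ± 79.8 to 7.89 ± 16.9 TPM in HCT-116 and from 531 ± 459 to 19.7 ± 50.6 TPM in HepG2. The log2 ratios were -3.95 and -3.96 for JUN, -1.54 and -1.63 for JUNB and -2.82 in HCT-116 for FOSB, which was at 4.96 ± 5.12 TPM in live against 0.05 ± 0.28 TPM in fixed HepG2 cells. ATF3 was at -0.07 in HCT-116 and -2.60 in HepG2. JUND (0.38 and 0.18), FOSL2 (0.14 and 0.16) and FOSL1 (0.12 and 0.10) lay near 0, and the last 2 turned below 0 after rescaling in both lines, as JUND did in HepG2.

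Of 37 other early response genes, 8 of 30 that passed the filter were at least 2-fold lower in HCT-116 and 0 higher, and 8 of 28 were lower and 4 higher in HepG2, with medians of -0.30 and -0.41. After rescaling, 11 were lower in HCT-116, and 9 were lower and 2 higher in HepG2. With rRNA left out, 12 were lower in HCT-116, and 9 were lower and 3 higher in HepG2. The shares of all genes moved with these settings too. In HCT-116, 13.5% of all genes were at least 2-fold lower after rescaling and 16.6% with rRNA left out. In HepG2, 15.004% were lower and 3.36% higher after rescaling, and 14.4% lower and 3.94% higher with rRNA left out. Within the list, the largest ratios in HCT-116 were those of NFKBIZ (-1.99), CYR61 (-1.98), a matricellular protein, and MAFF (-1.83). In HepG2 EGR2, a paralog of EGR1, was above 0 in 19.1% of live and 2.41% of fixed cells, CTGF was at -4.93 and PPP1R15A, a stress-induced phosphatase subunit, at -3.50. Of SRF and its 5 partners, which drive such genes, 1 was at least 2-fold lower in HCT-116 (MKL1, -1.01, with ELK1 added at -1.03 when rRNA was left out) and 0 in HepG2, and SRF itself was at 0.98 ± 1.29 TPM in live against 1.86 ± 2.04 TPM in fixed HepG2 cells. ELK4 and ELK3 were both at 0.75 in HCT-116, and ELK1 was at -0.70 and ELK3 at 0.66 in HepG2.

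Feedback genes of the ERK pathway were mixed, with 0 of 10 tested lower and 1 higher in HCT-116 (DUSP5, 1.18) and 1 of 5 lower (DUSP6, -1.07) and 1 higher (SPRY1, 1.20) in HepG2. Both HepG2 ratios rest on low levels. DUSP6 was at 1.99 ± 5.42 TPM in live against 0.95 ± 2.52 TPM in fixed cells. SPRY1 was at 0.58 ± 1.44 and 1.34 ± 5.15 TPM, and above 0 in 33.8% of live but 27.7% of fixed cells. Further named by size were DUSP4 (-0.74) and SPRY1 (0.69) in HCT-116 and PHLDA1 (0.66) in HepG2. With rRNA left out, DUSP5 was within 2-fold (0.87) and DUSP4 was lower (-1.07) in HCT-116, and after rescaling SPRY1 was within 2-fold (0.98) in HepG2. Of 17 factors of AU-rich binding and deadenylation, 0 were lower, 1 was higher in HCT-116 (CNOT6, 1.35) and 2 in HepG2 (CNOT1, 1.06, and CNOT11, 1.05), and TOB2 was at -0.92 and PAN3 at 0.76 in HCT-116 and CNOT3 at 0.76 in HepG2. Both HepG2 genes were within 2-fold after rescaling (CNOT1 0.84, CNOT11 0.69) and with rRNA left out (0.89 each), and TOB2 was then past 2-fold in HCT-116 (-1.10 and -1.23). In the BCL2 family, to which MCL1 belongs, BBC3 (-1.53) and BCL2L2 (2.48 ± 2.99 TPM live, 1.24 ± 2.20 TPM fixed) were at least 2-fold lower in HCT-116 and BIK (1.17) was higher in HepG2, though not after rescaling (0.999). BAK1 was at -0.39 and -0.55 in HCT-116 and HepG2 and BCL2L11 at -0.64 in HepG2. Of 13 reference genes, 0 were past 2-fold in HCT-116 and 1 in HepG2 (GUSB, -1.56), and their median was 0.40 and 0.32, PGK1 (0.76), HPRT1 (0.68) and PPIA (0.53) being the largest in HCT-116 and B2M (0.54) and PGK1 (0.44) following GUSB in HepG2.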

How the data were processed

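Cell labels gave line and treatment, and 334 of 346 labelled cells had a column; column numbers do not match the sample titles, so columns were used by group. The submitters' notes name FastQC, kallisto 0.46.0 and GRCh38. The authors quantified transcripts with kallisto (the methods name an ENSEMBL reference, whereas the deposited identifiers are those of RefSeq), used tximport to sum them, and deposited the TPM of each gene. The transcript tables deposited by the authors hold CPM, not divided by length, from which total reads were recovered to 0.1 M. Means, SDs, medians, CVs and Spearman's rho were computed over cells, and Clopper-Pearson 95% intervals cover counting error only. Ratios are of mean TPM, log2, for genes with a mean of at least 1 TPM in either treatment, and 2-fold was the size rule. Low values rest on few reads, and a gene with few reads in a cell is often at 0.

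The members, the related lists and the comparisons were chosen with earlier results of these data known. Named were all members, the 3 genes with the largest ratio of each list in each line, all AP-1 genes, the 5 genes most like EGR1 and transcripts with at least 10% of the level of a member. Alternatives were pseudocounts of 1 and 0.1 on the log2 scale, rescaling by the median ratio over genes in at least 90% of cells, leaving out rRNA, pairing live and fixed cells on total reads (53 pairs in HCT-116, 38 in HepG2), no filter on low values, a TPM above 1, reads thinned to 500000, partial correlations and leaving out HepG2 columns with equal or near-equal values. Leaving out the equal pair alone, the highest cell of each group or the lowest live cell, the counts of the related lists after rescaling or with rRNA left out, and the alternatives for MCL1 transcripts were chosen after seeing the data. Promoters came from RefSeq (GRCh38.p14; 7 of 10 members matched) and mRNAs from GENCODE release 44. Of all transcripts, 61.7% (HCT-116) and 61.8% (HepG2) matched a gene, and of those with curated identifiers 98.3%. The computations, run with pandas 2.3.3, scipy 1.17.1, numpy 2.4.6 and matplotlib 3.10.9 under Python 3.11.15, were tested on simulated data.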

Additional observations from a re-analysis of the deposited data

Results flagged for a closer look

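Members whose log2 ratio, fixed over live, lay on opposite sides of 0 in the lines are listed here, and the difference between the lines was not tested. BTG2 was at -0.59 in HCT-116 and 1.20 in HepG2, a difference of 1.79 (HepG2 minus HCT-116). KLF6 was at 0.01 and -1.21, a difference of -1.22, and its sign in HCT-116 changed with the setting. KLF10 was at 0.15 and -0.20, a difference of -0.36, and both of its values lay within 2-fold.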

How the results depend on the processing

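No paired analysis was possible because the columns carry no replicate number that can be matched to the labels and no test was run; cells paired on total reads are matched for depth and do not share an origin. For the main comparisons, 78 values under alternatives stayed near the reported ones (within 1.5-fold, within 0.1 for a rank correlation, or within the 95% interval for shares) and 2 did not, and for single genes 382 stayed and 26 did not. The number of members at least 2-fold lower in fixed HCT-116 cells was 2 as reported, 3 for the mean of log2(TPM + 1), after rescaling and with rRNA left out (EGR1 added), 4 in cells paired on total reads (EGR1 and BTG2 added) and 6 for the mean of log2(TPM + 0.1) (EGR1, BTG2, ZFP36 and MCL1 added); the cause was not tested. No ratio past 2-fold turned its direction. The percent of all HCT-116 genes at least 2-fold lower moved as well, from 10.1 as reported. It was 6.16 for the mean of log2(TPM + 1), 13.5 after rescaling and 16.6 with rRNA left out. In paired cells it was 11.2, and for the mean of log2(TPM + 0.1) it was 18.2. Without the filter on low values it was 20.6 in HCT-116 and 23.6 in HepG2. Among ratios of single members, EGR1 in HepG2 moved to -3.88 in paired cells and DUSP1 in HepG2 to -4.93 with a pseudocount of 0.1. Leaving out the pair of equal HepG2 columns or all near-equal ones changed no count of members in the fixed against live comparison. Without near-equal columns, 5 members differed at least 2-fold between the lines in fixed cells, MCL1 being added, against 4 as reported. Shares near 0 or 100% have little room to move, and the levels of IER5 rest on few reads. The part of depth in either was not tested.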

Other observations

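A few further early response genes were higher in fixed than in live HepG2 cells. They were chosen after their values were seen and lie outside the naming rule. GADD45A, a growth arrest gene, was at 0.83 TPM in live against 3.15 TPM in fixed cells (log2 ratio 1.93), KLF5 at 4.51 and 11.8 TPM (1.39), BHLHE40 at 0.62 and 1.45 TPM (1.23) and IER5L at 0.76 and 1.61 TPM (1.09). After rescaling, BHLHE40 (0.95) and IER5L (0.80) were within 2-fold. In HCT-116, IER5L was at 3.90 and 1.95 TPM in live and fixed cells, and the difference between the lines was not tested.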
